A study of Mus musculus with 12 samples.

Results

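On 6 of the 12 arrays of the series, livers (LIV) of mice on a high-fat diet were compared with and without LY2584702 tosylate (LY), an inhibitor of the kinase S6K1. They were chosen by their labels as the 3 livers of treated mice (HFD+LY, animals 16, 18 and 20) and the 3 livers of mice given the diet and vehicle (HFD, animals 8, 11 and 14). The other 6 arrays hold the subcutaneous adipose tissue (SAT) of the same animals. All were male C57BL/6N mice that were 8 weeks old at the start. The HFD+LY mice received LY at 25 mg/kg by gavage every 12 hours and the HFD mice vehicle on the same schedule, for 2 weeks before the diet and through 10 weeks of it, and 60% of the energy of the diet came from fat. No liver of a mouse on chow was analysed here, so the diet is common to both groups. Each array read the RNA of a whole liver sample, with all of its cell types together, as the log2 signal of 22206 transcript rows, of which 19505 gene symbols were each read by the row with the highest mean signal. The values of 3 livers are given in the order of animals 16, 18 and 20 for HFD+LY and of animals 8, 11 and 14 for HFD.

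S6K1 is a kinase that acts downstream of mTORC1, the complex that couples insulin and amino acids to growth. It phosphorylates the ribosomal protein S6 and components of the translation machinery, and it feeds back on insulin receptor substrates. In hepatocytes the same pathway is known for its control of the sterol regulatory element-binding proteins (SREBPs), the transcription factors that switch on the synthesis of fatty acids and cholesterol. In a fatty liver, uptake of fatty acids, their storage in droplets, their oxidation and an inflammatory response of resident macrophages run side by side, and these roles set the order of the genes. The inhibitor acts on the protein, so the RNA of its target is no check of the treatment, and Rps6kb1 and Srebf1 were not analysed here.

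Cyp4a12b, a male-predominant cytochrome P450 that hydroxylates fatty acids at the omega carbon, was the 1 transcript that passed the adjusted threshold, and it fell in HFD+LY livers. Its log2 signals were 9.73, 9.56 and 9.74 in HFD+LY livers, against 11.21, 11.21 and 11.20 in HFD livers. The lowest HFD liver lay above the highest HFD+LY liver by far more than the spread in either group, and the fall was 2.89-fold (log2 fold change -1.53, standard error 0.091, adjusted p = 0.0016 from limma). Cyp4a12a, its near-identical neighbor with the same activity, had log2 signals of 10.43, 10.92 and 11.08 in HFD+LY livers, against 11.84, 12.15 and 12.13 in HFD livers (log2 fold change -1.23, standard error 0.17, unadjusted p = 6.81e-05). The groups did not overlap for Cyp4a12a either, but its adjusted p was 0.292, and since probes of such similar genes may bind both transcripts, the pair cannot be counted as separate measurements. Of the 22206 rows tested, 1 (0.0045%) had an adjusted p under 0.05 from limma with Benjamini-Hochberg adjustment, and the next smallest adjusted p was 0.292. At an unadjusted p under 0.05, 1533 rows (6.9%) passed, 658 higher and 875 lower in HFD+LY livers, and for 2776 rows (12.5%) the 3 and 3 livers did not overlap. With each array centred on its median, the split was 995 higher and 602 lower, so the balance between the directions depends on the scaling. By symbol, 2.96% were higher and 4.09% lower at an unadjusted p under 0.05. These shares are the background for what follows, and higher and lower at an unadjusted p are descriptions of these 6 livers. The lists were chosen with earlier results of these data known, so their counts beside these shares are not a test. The median log2 fold change over the 19505 symbols was -0.0083. With 3 mice against 3, an exact two-sided permutation test of a single gene cannot go below a p of 0.1, and the number of arrays limits the precision. Over 10 bins of equal size by mean signal, the median fold change ran from -0.054 at a signal of 7.54 to 0.035 at a signal of 10.2, so a list's median has to be read against shifts of that size.

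**Figure D1:**
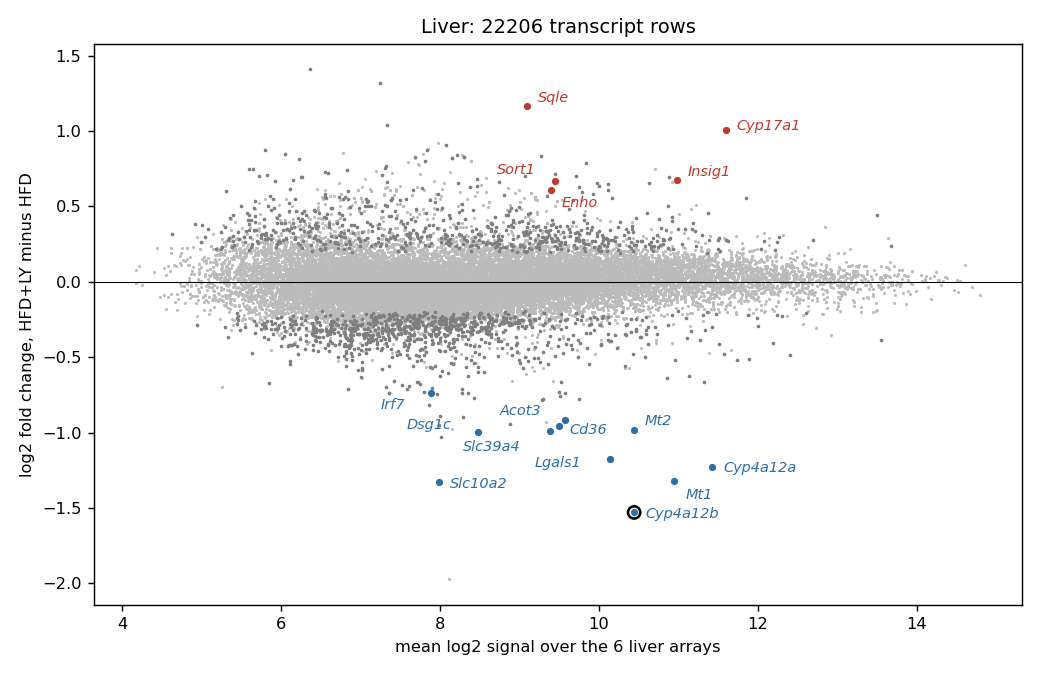
Log2 fold change (HFD+LY minus HFD) of each transcript row against its mean log2 signal over the 6 liver arrays. Dark gray points had an unadjusted p under 0.05 from limma, colored points are genes named in the text (red higher, blue lower in HFD+LY), and the circle marks Cyp4a12b, the 1 row past the adjusted threshold at -1.53.

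The remaining omega-hydroxylases did not pass. Of 17 measured genes of the Cyp4a and Cyp4f families, 2 were lower at an unadjusted p under 0.05, namely the pair above, 0 were higher and 15 did not pass, with a median log2 fold change of -0.014, and of 0.049 without animal 8, while 1 was higher without animal 11 or 20. Cyp4a10, an enzyme of the same family that responds to the fatty acid sensor PPARA, had 13.11, 13.25 and 13.22 in HFD+LY livers, against 13.65, 13.12 and 13.41 in HFD livers (-0.20, standard error 0.14). Cyp4a14, which also responds to PPARA, had 12.79, 12.53 and 12.65 in HFD+LY livers, against 12.90, 12.45 and 12.79 in HFD livers (-0.058, standard error 0.13). Both overlapped between the groups, as did Cyp4a31 (-0.24, standard error 0.26) and Cyp4a32 (-0.18, standard error 0.19), which were highest in HFD animal 8. Of 19 measured genes with male-biased expression in mouse liver, the same pair was lower, 0 were higher and 17 did not pass (median 0.021, and -0.060 without animal 14), while 1 was higher without animal 8, 11 or 20. Of 21 genes with female bias, 4 were lower, or 7 without animal 11, and 0 higher (median -0.080), namely Acot3, the neurotrophin receptor Ntrk2 (-0.42, standard error 0.13), the hydroxy acid oxidase Hao2 (-0.38, standard error 0.14) and the flavin monooxygenase Fmo2 (-0.31, standard error 0.096). The major urinary proteins, pheromone carriers of male liver, had a median of 0.0057 over 9 genes, with 1 lower, Mup21 (-0.39, standard error 0.13), or 0 without animal 18, 8 or 11, and probes of this family are also near identical. Igf1, the main product of growth hormone action in liver, had 13.35, 13.39 and 13.49 in HFD+LY livers, against 13.49, 13.46 and 13.36 in HFD livers (-0.025, standard error 0.091), and 0 of 24 genes of the growth hormone and IGF axis passed in either direction, while 2 were higher and 3 lower without animal 20 and 1 lower without animal 8.

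**Figure D2:**
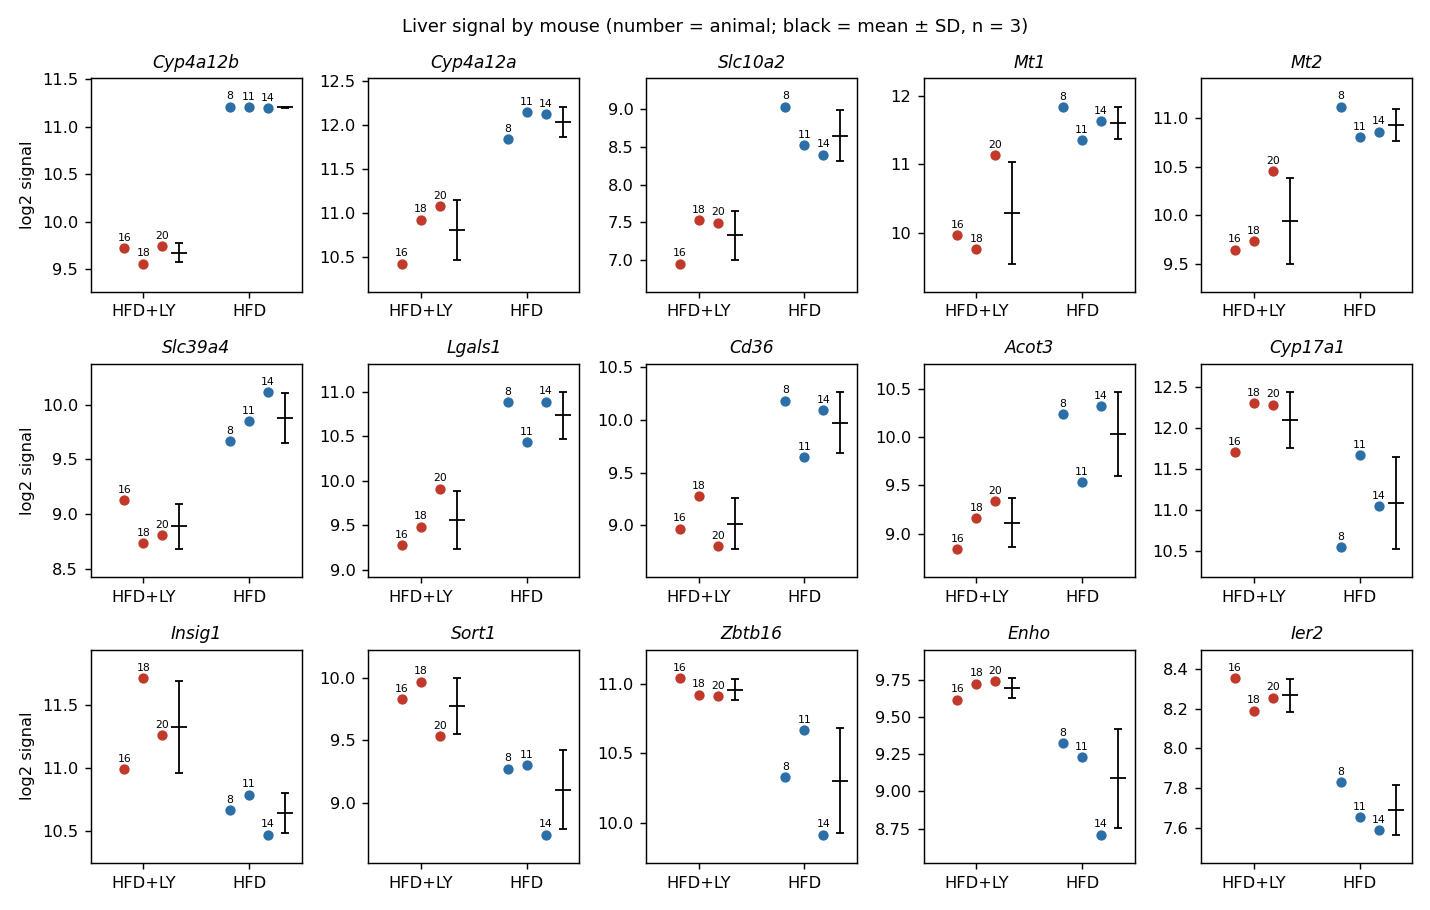
Log2 signal of 15 genes in each liver, with the HFD+LY mice in red at the left and the HFD mice in blue at the right of each panel, the animal number above each point, and the mean ± SD (n = 3) in black. The groups are apart in every panel, by the widest margin relative to their spread for Cyp4a12b, while Mt1 and Mt2 of animal 20 lie closer to the HFD mice than those of animals 16 and 18.

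Zinc handling held several of the lowest fold changes. Mt1, a metallothionein that binds zinc and copper, had log2 signals of 9.96, 9.76 and 11.14 in HFD+LY livers, against 11.83, 11.36 and 11.63 in HFD livers (log2 fold change -1.32, standard error 0.32, unadjusted p = 0.00274). Mt2, its neighbor with the same function, had 9.65, 9.74 and 10.45 in HFD+LY livers, against 11.12, 10.81 and 10.86 in HFD livers (log2 fold change -0.98, standard error 0.20, unadjusted p = 0.00107). Animals 16 and 18 were the low ones and animal 20 lay between them and the HFD livers, without overlap for either gene. Slc39a4, a zinc importer of the cell surface, had 9.12, 8.73 and 8.81 in HFD+LY livers, against 9.67, 9.85 and 10.11 in HFD livers (log2 fold change -0.99, standard error 0.15, unadjusted p = 9.95e-05), with all 3 HFD+LY livers below all 3 HFD livers. Slc39a10, another zinc importer, was higher with 8.22, 8.63 and 8.15 in HFD+LY livers, against 7.86, 8.04 and 7.78 in HFD livers (0.44, standard error 0.14), and of the zinc exporters Slc30a3 was lower (-0.29, standard error 0.097) and Slc30a6 higher (0.29, standard error 0.11). Slc30a1, the zinc exporter that responds to metal together with the metallothioneins, had 10.49, 10.25 and 10.36 in HFD+LY livers, against 10.57, 10.50 and 10.48 in HFD livers (-0.15, standard error 0.096) and did not pass, and neither did Mtf1, the metal-sensing transcription factor that drives these genes (0.033, standard error 0.11). Of 29 metallothioneins and zinc transporters, 4 were lower, 2 higher and 23 did not pass, with a median of -0.046. The shares over all symbols were 4.09% lower and 2.96% higher. The count of higher members was 0 without animal 14, 1 without animal 16, 18 or 11 and 3 without animal 8, and the median was -0.014 without animal 20 and -0.021 without animal 14.

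The promoters of the metallothioneins are shown because Mt1 and Mt2 were lower together and metal response elements are their known control sites. The sequences are those of RefSeq in build GRCm38.p6, from 250 bases before to 50 bases after the annotated start, with the core of the element, searched as TGCACNC or TGCGCNC on both strands, in capitals.
Mt1, chr8:94178839-94179138, plus strand: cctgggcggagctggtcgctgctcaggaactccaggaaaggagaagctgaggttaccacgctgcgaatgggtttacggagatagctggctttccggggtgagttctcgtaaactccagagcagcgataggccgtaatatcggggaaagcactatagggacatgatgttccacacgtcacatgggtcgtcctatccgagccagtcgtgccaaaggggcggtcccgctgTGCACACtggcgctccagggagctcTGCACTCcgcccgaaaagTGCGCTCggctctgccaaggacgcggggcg
Mt2, chr8:94172368-94172667, plus strand: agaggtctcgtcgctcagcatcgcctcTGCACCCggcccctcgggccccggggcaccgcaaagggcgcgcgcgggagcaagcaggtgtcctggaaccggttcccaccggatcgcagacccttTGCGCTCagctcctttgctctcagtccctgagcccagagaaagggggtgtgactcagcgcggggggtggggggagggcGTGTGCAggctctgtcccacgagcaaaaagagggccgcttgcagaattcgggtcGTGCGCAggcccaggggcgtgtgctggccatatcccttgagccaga
The Mt1 window held 3 matches and the Mt2 window 4. Such a short core was found in 25.7% of all 32851 promoters of this length, and 2 or more matches in 7.11%. These shares count every promoter, while each member was counted once, with a match at any annotated start. Of the 4 members lower at an unadjusted p, 3 had a promoter sequence here and each of these held a match, as did 15 of the 25 measured members with a sequence, whether or not they differed between the groups.

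Cholesterol synthesis had the highest median of all lists described. Of 22 measured genes of sterol synthesis and uptake, 9 were higher at an unadjusted p under 0.05, 0 were lower and 13 did not pass, where 2.96% of all symbols were higher and 4.09% lower. Their median log2 fold change was 0.45, and 21 of the 22 had a positive value. Insig1, which holds SREBP precursors in the endoplasmic reticulum and is itself a target of them, had log2 signals of 10.99, 11.71 and 11.26 in HFD+LY livers, against 10.67, 10.79 and 10.47 in HFD livers (log2 fold change 0.68, standard error 0.18, unadjusted p = 0.00437). The groups did not overlap for Insig1, with animal 16 nearest to the HFD livers.

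The enzymes of the pathway were high in the same livers. Hmgcs1, which makes HMG-CoA at its entry, had 9.14, 10.39 and 9.90 in HFD+LY livers, against 9.02, 9.31 and 8.96 in HFD livers (0.71, standard error 0.27). Mvk, the mevalonate kinase, had 8.84, 9.37 and 9.17 in HFD+LY livers, against 8.59, 8.83 and 8.72 in HFD livers (0.41, standard error 0.14), without overlap. Sqle, the squalene epoxidase, had 8.48, 10.61 and 9.94 in HFD+LY livers, against 8.40, 8.98 and 8.14 in HFD livers (1.17, standard error 0.47). In each of them animals 18 and 20 were high and animal 16 was at or near the level of the HFD livers, of which animal 11 was the highest. Cyp51, the lanosterol demethylase, had 8.91, 10.30 and 9.84 in HFD+LY livers, against 8.70, 9.23 and 8.62 in HFD livers (0.83, standard error 0.32). Msmo1, the next oxidase of the pathway, had 9.55, 10.74 and 10.41 in HFD+LY livers, against 9.38, 9.65 and 9.30 in HFD livers (0.79, standard error 0.27). Later steps were also among the 9, with Hsd17b7, a ketosteroid reductase of sterol synthesis (0.50, standard error 0.21), and Sc5d, the lathosterol desaturase (0.28, standard error 0.12), as was the sterol carrier Stard4 (0.45, standard error 0.19). Idi1, the isopentenyl isomerase, had 7.04, 8.94 and 8.65 in HFD+LY livers, against 7.17, 8.33 and 6.60 in HFD livers (0.84, standard error 0.54) and did not pass, with animal 16 below HFD animal 11. Fdps, the farnesyl diphosphate synthase (0.66, standard error 0.40), Nsdhl, a decarboxylase of sterols (0.75, standard error 0.40), and Fdft1, the squalene synthase (0.45, standard error 0.21), did not pass either. Srebf2, the transcription factor that drives the pathway, had 10.27, 10.59 and 10.31 in HFD+LY livers, against 10.09, 10.26 and 10.08 in HFD livers (0.25, standard error 0.11), with animal 16 level with HFD animal 11, and did not pass. Insig2, the paralog of Insig1, was the 1 member with a negative value (-0.21, standard error 0.18). The rate-limiting reductase and the LDL receptor were not analysed here.

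These counts leaned on single livers. Without animal 16, 18 of the 22 genes were higher with a median of 0.66, and 2 were higher without animal 18, 20, 8 or 14, with medians of 0.29, 0.39, 0.38 and 0.41. The mean signal of the list was 9.66, 10.45 and 10.21 in HFD+LY livers and 9.54, 9.90 and 9.51 in HFD livers, so animal 16 lay within the range of the HFD livers. The promoter of Hmgcs1 is shown as the member with a sterol regulatory element, searched as TCACNCCAC on both strands in the same RefSeq promoters, with the match in capitals.
Hmgcs1, chr13:119690194-119690242, plus strand: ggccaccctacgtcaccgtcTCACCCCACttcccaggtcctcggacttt
It was the 1 of 18 members with a sequence that held this spelling, which was found in 1.24% of all promoters, and no match says only that these letters are absent from this window.

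**Figure D3:**
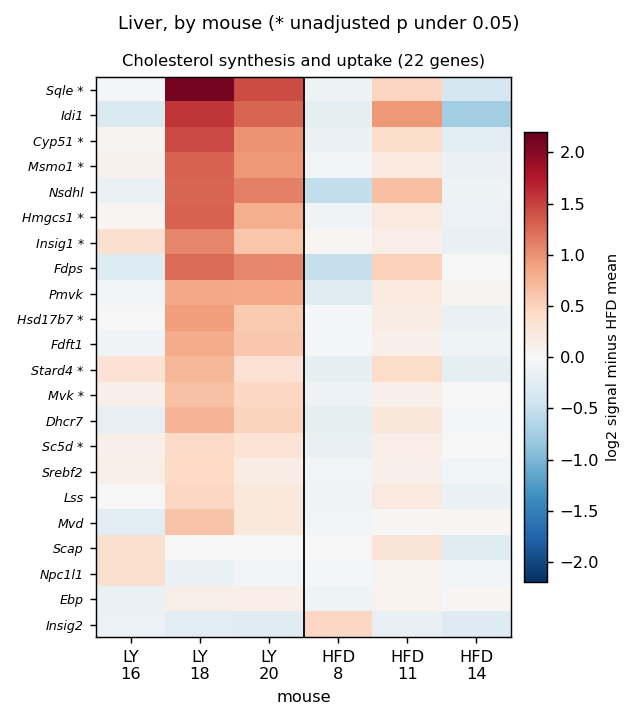
Deviation of the log2 signal from the mean of the 3 HFD livers for the 22 measured genes of cholesterol synthesis and uptake (rows, sorted by fold change) in each liver (columns, HFD+LY mice left of the line, HFD mice right). Animals 18 and 20 are red in most rows, animal 16 is close to the HFD livers, and asterisks mark the 9 genes at an unadjusted p under 0.05.

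Fatty acid synthesis, the other arm of SREBP control, had few differences. Of 21 measured genes, 1 was higher, the regulator of acetyl-CoA carboxylase Mid1ip1 (0.44, standard error 0.17), 0 were lower and 20 did not pass, with a median of 0.032. Without animal 18, 8 or 11 the count of higher genes was 0, and the median ran from -0.039 without animal 8 to 0.097 without animal 16. Fasn, the fatty acid synthase, had 10.47, 10.95 and 10.90 in HFD+LY livers, against 10.43, 10.94 and 10.71 in HFD livers (0.078, standard error 0.17), and Scd1, the stearoyl-CoA desaturase, had 12.09, 12.39 and 12.77 in HFD+LY livers, against 12.09, 12.89 and 12.64 in HFD livers (-0.12, standard error 0.23). Both overlapped between the groups. Genes that send cholesterol out of the cell or answer to LXR, the receptor for oxysterols, had a median of 0.010 over 12 genes, or -0.023 without animal 16, with Mylip, a ubiquitin ligase, as the 1 lower member (-0.37, standard error 0.11). Of 19 genes of lipoproteins, Sort1, a sorting receptor that binds apolipoprotein B, had 9.83, 9.97 and 9.53 in HFD+LY livers, against 9.27, 9.30 and 8.75 in HFD livers (log2 fold change 0.67, standard error 0.17, unadjusted p = 0.00404), without overlap. Apoa4, an apolipoprotein that follows the fat load of the liver, was lower (-0.52, standard error 0.16) and Apoa1, the main protein of HDL, higher (0.24, standard error 0.10) at an unadjusted p. With Sort1 these made 2 higher and 1 lower, and the count of higher genes was 3 without animal 11 and 1 without animal 18, 20, 8 or 14.

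Uptake and storage of fatty acids held a group of lower genes. Cd36, the fatty acid translocase of the plasma membrane, had log2 signals of 8.97, 9.28 and 8.80 in HFD+LY livers, against 10.18, 9.65 and 10.10 in HFD livers (log2 fold change -0.96, standard error 0.17, unadjusted p = 0.000358, adjusted p = 0.441). The 3 HFD+LY livers lay below the 3 HFD livers, of which animal 11 was the nearest. Slc27a1, a fatty acid transporter of the plasma membrane, had 9.08, 9.38 and 9.13 in HFD+LY livers, against 9.93, 9.59 and 9.54 in HFD livers (-0.49, standard error 0.13), and Fabp4, a carrier of fatty acids in fat cells and macrophages, had 10.02, 9.73 and 9.71 in HFD+LY livers, against 10.51, 10.08 and 10.12 in HFD livers (-0.42, standard error 0.14). Neither overlapped. Ffar4, a receptor for long-chain fatty acids, had dim signals of 6.73, 6.69 and 6.85 in HFD+LY livers, against 6.87, 7.15 and 7.18 in HFD livers (-0.31, standard error 0.11), and Gpihbp1, the endothelial anchor of lipoprotein lipase, was lower as well (-0.24, standard error 0.10). Of 25 genes of uptake, binding and reception, 5 were lower and 0 higher, and the median was -0.046. The count of lower genes was 3 without animal 18 or 11. Of all symbols, 4.09% were lower and 2.96% higher.

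Several of these genes are known targets of PPARG, the receptor that drives fat storage in steatotic liver. Pparg itself had 8.86, 9.36 and 9.82 in HFD+LY livers, against 9.08, 9.45 and 9.51 in HFD livers (-0.0021, standard error 0.23), with complete overlap and animal 20 the highest of all 6. Of 11 measured genes of the list of PPARG and its targets, all 11 had a negative value, of which that of Pparg turned positive with each array centred on its median or with animal 11, 14 or 16 left out, and 4 were lower at an unadjusted p (median -0.25, and -0.14 without animal 14). Besides Cd36 and Fabp4 these were Cidec, a protein that fuses lipid droplets, with 7.89, 7.77 and 8.17 in HFD+LY livers, against 8.41, 8.66 and 8.27 in HFD livers (-0.50, standard error 0.14), and Plin4, a coat protein of droplets, with 9.06, 8.94 and 9.63 in HFD+LY livers, against 9.59, 10.09 and 10.15 in HFD livers (-0.74, standard error 0.21). Plin2, the main droplet coat of hepatocytes, had 12.79, 12.74 and 12.58 in HFD+LY livers, against 12.82, 12.87 and 13.06 in HFD livers (-0.21, standard error 0.10) and did not pass. Fabp4, Cidec and Plin4 are also adipocyte genes, and of 9 measured adipocyte markers 2 were lower, Cidec and the hormone leptin, Lep (-0.37, standard error 0.14), with a median of -0.21. The count was 4 with animal 20 left out and 1 with animal 11 or 18 left out. The mean signal of the adipocyte list was 7.91 to 7.97 in HFD+LY livers and 8.12 to 8.21 in HFD livers, and their part in the result was not tested. Of 31 genes of triglyceride assembly, droplets and lipolysis, which include Cidec and Plin4, 2 were lower and 29 did not pass (median -0.071, and -0.0051 without animal 14). Beside these lists, 4.09% of all symbols were lower and 52.4% had a negative value.

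Of the acyl-CoA thioesterases, which release fatty acids from coenzyme A, 3 were lower. Acot3, a peroxisomal member, had 8.84, 9.16 and 9.34 in HFD+LY livers, against 10.24, 9.53 and 10.32 in HFD livers (log2 fold change -0.92, standard error 0.21, unadjusted p = 0.00222). Acot4 had 8.65, 8.69 and 8.67 in HFD+LY livers, against 9.58, 8.86 and 9.01 in HFD livers (-0.48, standard error 0.17) and the cytosolic Acot1 10.21, 9.99 and 10.26 in HFD+LY livers, against 10.72, 10.35 and 10.42 in HFD livers (-0.34, standard error 0.13). The groups did not overlap for these 3, and HFD animal 11 was the lowest HFD liver in each. The other 10 measured thioesterases did not pass, and the median over 13 was -0.026. Without animal 8 or 18, 2 were lower, and 4 were lower without animal 20. With all mice, 4.09% of all symbols were lower. Acot3 and Acot4 lie on chromosome 12, and whether probes of this family cross-react was not tested. Oxidation of fatty acids, with Cpt1a, the carnitine transferase that admits them to mitochondria (-0.12, standard error 0.087), and Ppara, the receptor that drives the program (-0.11, standard error 0.094), had 1 lower gene of 29, the pantetheinase Vnn1 with 11.15, 11.33 and 11.42 in HFD+LY livers, against 11.74, 11.62 and 11.78 in HFD livers (-0.42, standard error 0.10) (median -0.037), or 2 lower without animal 8. Fgf21, a hormone of the fasted liver, had 7.74, 7.72 and 7.81 in HFD+LY livers, against 7.78, 8.09 and 8.16 in HFD livers (-0.25, standard error 0.12). Cers6, a ceramide synthase, had 9.20, 9.38 and 9.51 in HFD+LY livers, against 10.22, 9.86 and 10.35 in HFD livers (log2 fold change -0.78, standard error 0.14, unadjusted p = 0.000483), without overlap.

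In bile acid transport, 1 gene stood apart. Slc10a2, the apical sodium-dependent bile acid transporter of the ileum and of cholangiocytes, had log2 signals of 6.95, 7.53 and 7.49 in HFD+LY livers, against 9.04, 8.52 and 8.40 in HFD livers (log2 fold change -1.33, standard error 0.20, unadjusted p = 0.000128, adjusted p = 0.316). Its HFD+LY livers all lay below its HFD livers, and the difference was 2.51-fold. The other 19 measured genes of bile acid transport and regulation did not pass, among them Slc10a1, the uptake transporter of hepatocytes, with 13.29, 13.36 and 13.30 in HFD+LY livers, against 13.29, 13.34 and 13.31 in HFD livers (0.0040, standard error 0.084), and Abcb11, the bile salt export pump (0.12, standard error 0.096). Of 18 genes of bile acid synthesis, 0 passed in either direction (median 0.043), while 3 were higher without animal 8 and 1 without animal 16 or 11. The median was 0.069 without animal 20 and 0.025 without animal 14. Cyp7a1, the rate-limiting enzyme, had 11.57, 11.59 and 11.68 in HFD+LY livers, against 11.47, 11.59 and 11.12 in HFD livers (0.22, standard error 0.13), and Cyp8b1, which sets the share of cholic acid, had 11.77, 12.53 and 12.22 in HFD+LY livers, against 12.25, 12.17 and 12.04 in HFD livers (0.020, standard error 0.18). Since Slc10a2 is a cholangiocyte gene, the markers of that cell type were read beside it: 2 of 10 were lower, the keratins Krt23 (-0.71, standard error 0.26) and Krt19 (-0.56, standard error 0.23), the median was -0.24, and it was -0.060 with 0 lower without HFD animal 8, which had the highest mean signal of the list, 8.05. The count was 4 with animal 11 left out and 1 with animal 16 or 18 left out. Among all symbols, 4.09% were lower. Without animal 8 the fold change of Slc10a2 was -1.14. The HFD+LY livers had means of 7.30 to 7.46, against 7.41 and 7.54 in HFD animals 11 and 14, and the part of these cells in the result was not tested.

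Genes of the interferon response were mostly on the lower side. They are induced by type I and type II interferons through STAT and IRF factors and include antiviral enzymes, guanylate-binding GTPases and parts of the immunoproteasome. Of 47 measured members, 14 were lower at an unadjusted p under 0.05, 0 were higher and 33 did not pass, and 39 had a negative value (median -0.21). The shares over all symbols were 4.09% lower, 2.96% higher and 52.4% with a negative value. In the bin of signal nearest to the list's median, at 8.41, 115 of 2221 rows were lower and 50 higher. The median of that bin was -0.036. Irf7, the master regulator of type I interferon genes, had log2 signals of 7.60, 7.65 and 7.30 in HFD+LY livers, against 8.40, 8.25 and 8.11 in HFD livers (log2 fold change -0.74, standard error 0.12, unadjusted p = 0.000253). Trim30a, an inducible ubiquitin ligase, had 7.33, 7.42 and 6.80 in HFD+LY livers, against 8.05, 7.85 and 7.70 in HFD livers (-0.68, standard error 0.17). Cmpk2, a mitochondrial nucleotide kinase induced by interferon, had 7.83, 7.49 and 7.65 in HFD+LY livers, against 8.28, 8.20 and 8.16 in HFD livers (-0.56, standard error 0.11). In these 3 genes every HFD+LY liver lay below every HFD liver, and animal 20 was the lowest for Irf7 and Trim30a.

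The other lower members had smaller differences. Usp18, which removes ISG15 and dampens interferon signaling, had 8.52, 8.41 and 7.99 in HFD+LY livers, against 9.09, 8.79 and 8.53 in HFD livers (-0.50, standard error 0.18), and Oas1g, an oligoadenylate synthetase, had 8.25, 8.01 and 8.22 in HFD+LY livers, against 8.64, 8.50 and 8.47 in HFD livers (-0.38, standard error 0.10). Oasl2 (-0.35, standard error 0.10) belongs to the same family. Ifit1, which binds foreign RNA, had 7.07, 7.47 and 7.19 in HFD+LY livers, against 7.31, 7.95 and 7.86 in HFD livers (-0.46, standard error 0.18) and overlapped, while Ifit3 (-0.27, standard error 0.11) and its near-identical neighbor Ifit3b (-0.27, standard error 0.097) did not. Bst2, the tether of budding viruses, had 11.89, 11.88 and 11.80 in HFD+LY livers, against 12.22, 12.05 and 12.17 in HFD livers (-0.29, standard error 0.090). The immunoproteasome subunit Psmb9 had 9.87, 10.19 and 10.01 in HFD+LY livers, against 10.54, 10.21 and 10.39 in HFD livers (-0.35, standard error 0.12), and the GTPases Igtp (-0.35, standard error 0.13) and Iigp1 (-0.27, standard error 0.11) and the membrane protein Ifi27 (-0.39, standard error 0.15) completed the 14. Isg15, the ubiquitin-like modifier, had 8.25, 8.13 and 8.09 in HFD+LY livers, against 8.32, 8.24 and 8.34 in HFD livers (-0.15, standard error 0.090) and did not pass, nor did Irf9, a part of the signaling complex (-0.12, standard error 0.13). In 15 of the 47 members the groups did not overlap, against 12.5% of all rows. Macrophages also carry an interferon response. The mean signal of their 19 markers was 8.10 to 8.30 in HFD+LY livers and 8.35 to 8.70 in HFD livers, and their part in the result was not tested. The count of lower members was 9 without animal 20 and 7 without animal 8, with medians of -0.17 and -0.18.

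The promoters of the lower members are shown with the interferon-stimulated response element, the site of the STAT and IRF complex, searched as GAAA, NN and GAAA in a row on both strands in the RefSeq promoters and given in capitals with up to 20 bases on each side.
Trim30a, chr7:104446094-104446143, minus strand: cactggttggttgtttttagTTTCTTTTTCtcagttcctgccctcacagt
Oas1g, chr5:120887596-120887651, minus strand: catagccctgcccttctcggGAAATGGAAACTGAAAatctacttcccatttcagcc
Bst2, chr8:71537567-71537622, minus strand: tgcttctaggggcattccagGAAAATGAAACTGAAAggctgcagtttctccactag
Ifit3b, chr19:34607749-34607832, plus strand: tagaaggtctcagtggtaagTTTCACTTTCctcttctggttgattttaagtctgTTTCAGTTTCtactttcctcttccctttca
Ifit3, chr19:34583353-34583436, plus strand: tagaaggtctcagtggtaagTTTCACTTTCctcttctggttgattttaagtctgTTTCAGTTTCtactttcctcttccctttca
Igtp, chr11:58199502-58199551, plus strand: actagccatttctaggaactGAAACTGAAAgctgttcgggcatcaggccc
Ifit1, chr19:34640765-34640833, plus strand: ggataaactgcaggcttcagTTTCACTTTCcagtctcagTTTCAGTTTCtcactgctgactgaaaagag
Of the 14 lower members, 11 had a promoter sequence and 7 of these held a match, while Irf7, Cmpk2, Oasl2 and Psmb9 did not. The windows of Ifit3 and Ifit3b were the same, and Trim30a had a second annotated start with a match. Of all 47 measured members, 34 had a sequence and 19 of them held a match (55.9%), which included Isg15, Stat2 and Oas3, whose signals did not pass. Among all 32851 promoters the share was 3.44%, which counts every promoter, while each member was counted once, with a match at any annotated start.

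**Figure D4:**
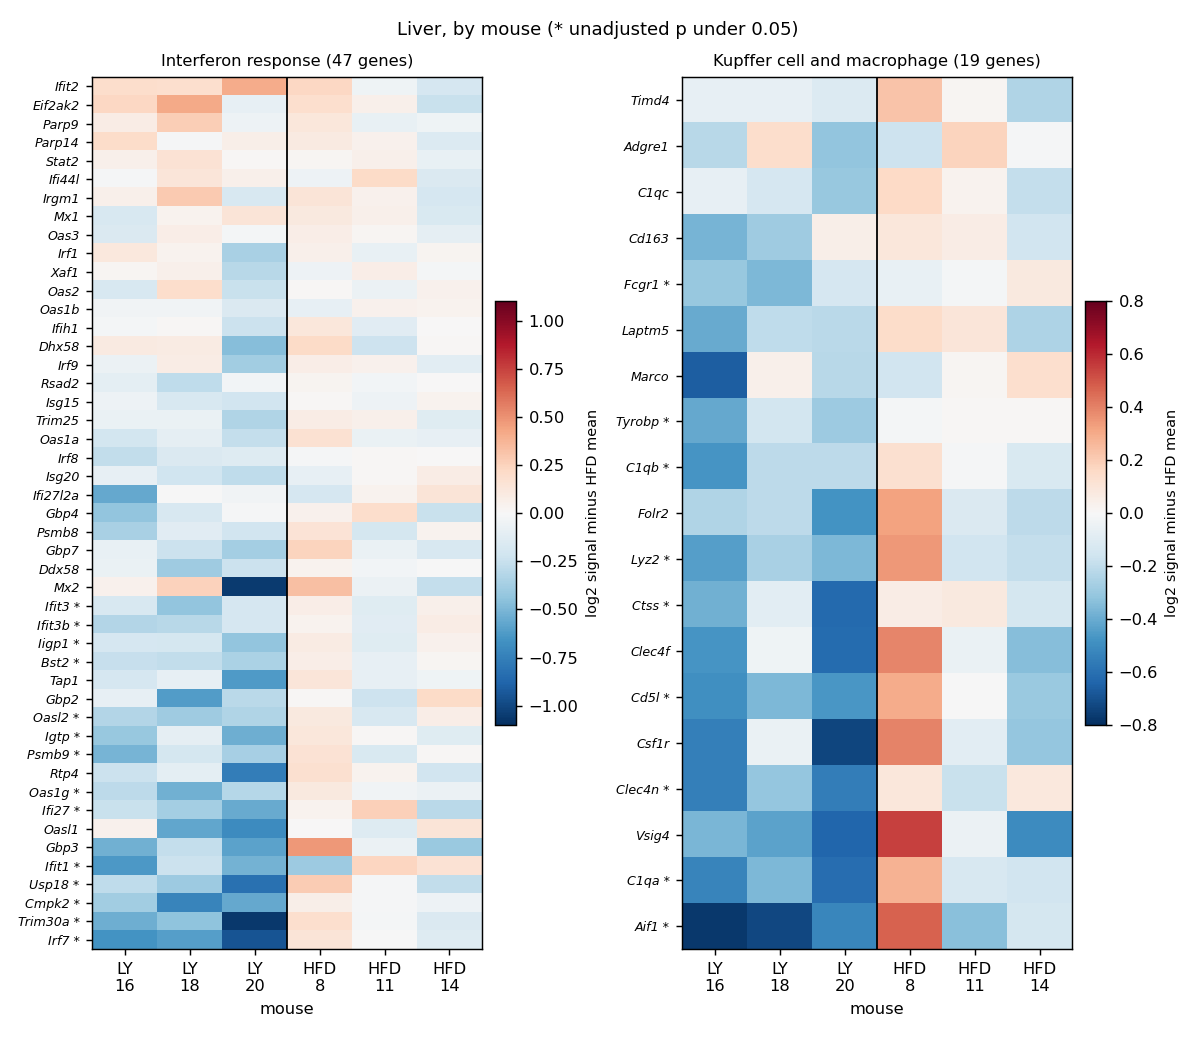
Deviation of the log2 signal from the mean of the 3 HFD livers for the 47 interferon response genes (left) and the 19 markers of Kupffer cells and macrophages (right) in each liver, with HFD+LY mice left of each line and HFD mice right of it. Asterisks mark unadjusted p under 0.05, which were 14 and 9 genes, all lower in HFD+LY, and HFD animal 8 has the highest values of many macrophage markers.

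Markers of the resident macrophages were on the lower side too. All 19 measured markers of Kupffer cells and macrophages had a negative value, 9 were lower at an unadjusted p and 0 higher, and the median was -0.31. The share of lower genes was 4.09% over all symbols. At the signal nearest to the list's median, 8.41, a bin of 2221 rows had 115 lower and a median of -0.036. In whole liver RNA, fewer cells of a type and less RNA of the gene per cell cannot be told apart. C1qa, a chain of complement C1q made by macrophages, had 8.79, 8.97 and 8.71 in HFD+LY livers, against 9.61, 9.20 and 9.17 in HFD livers (-0.50, standard error 0.14). C1qb, its partner chain, had 8.84, 9.10 and 9.10 in HFD+LY livers, against 9.44, 9.30 and 9.19 in HFD livers (-0.30, standard error 0.11). Clec4n, the lectin Dectin-2, had 6.51, 6.74 and 6.50 in HFD+LY livers, against 7.14, 6.87 and 7.14 in HFD livers (-0.47, standard error 0.12). These 3 did not overlap, and HFD animal 8 was the highest for both C1q chains. Cd5l, a secreted macrophage protein, had 8.63, 8.76 and 8.65 in HFD+LY livers, against 9.41, 9.12 and 8.82 in HFD livers (-0.44, standard error 0.15), Aif1, an actin-binding protein of macrophages, had dim signals of 5.41, 5.45 and 5.66 in HFD+LY livers, against 6.66, 5.85 and 6.04 in HFD livers (-0.67, standard error 0.19), and Lyz2, a lysozyme, had 7.97, 8.15 and 8.05 in HFD+LY livers, against 8.76, 8.25 and 8.22 in HFD livers (-0.35, standard error 0.15). The protease Ctss (-0.37, standard error 0.14), the signaling adaptor Tyrobp (-0.28, standard error 0.097) and the antibody receptor Fcgr1 (-0.27, standard error 0.098) completed the 9. The other 10 markers did not pass. Clec4f, a lectin of Kupffer cells, had 9.27, 9.70 and 9.12 in HFD+LY livers, against 10.13, 9.68 and 9.40 in HFD livers (-0.37, standard error 0.21), Timd4, a receptor of resident cells, had 7.40, 7.40 and 7.35 in HFD+LY livers, against 7.69, 7.48 and 7.22 in HFD livers (-0.080, standard error 0.12), Adgre1, which encodes F4/80, had 7.63, 7.996 and 7.54 in HFD+LY livers, against 7.69, 8.03 and 7.84 in HFD livers (-0.13, standard error 0.14), and Csf1r, the receptor for their growth factor, had 8.86, 9.36 and 8.67 in HFD+LY livers, against 9.80, 9.33 and 9.10 in HFD livers (-0.44, standard error 0.21), and the groups overlapped in these 4.

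The mean signal of the macrophage list was 8.10, 8.30 and 8.12 in HFD+LY livers and 8.70, 8.48 and 8.35 in HFD livers, without overlap. The count of lower markers was 4 without animal 16, 6 without animal 8 or 11, and 13 without animal 14. Markers of monocytes and lipid-associated macrophages, with Trem2 (-0.16, standard error 0.12) and Gpnmb (-0.19, standard error 0.13), had 0 of 15 past the threshold (median -0.12). Markers of T cells, NK cells and B cells had medians of -0.13, -0.037 and -0.040, with 1 of 32 genes lower, Cd22 (-0.35, standard error 0.14), or 0 without animal 16 or 20 and 2 without animal 8, and the 11 neutrophil markers one of -0.084, with Ltf, lactoferrin, lower (-0.34, standard error 0.12), or 0 lower without animal 16 or 14. Markers of liver endothelial cells, with 3 of 24 lower, had a median of -0.21, and means of 9.06, 8.71 and 8.70 in HFD+LY livers and 9.02, 9.08 and 8.94 in HFD livers, so animal 16 was at the level of the HFD mice. The count was 12 when animal 16 was left out, 0 when animal 20 was and 1 when animal 8 or 18 was. The share of lower genes over all symbols was 4.09%. Clec4g, a lectin of the sinusoids, had 10.63, 10.14 and 10.27 in HFD+LY livers, against 10.74, 10.65 and 10.75 in HFD livers (-0.37, standard error 0.13) and was lower with Oit3 (-0.40, standard error 0.17) and the Fc receptor Fcgr2b (-0.39, standard error 0.17), and Stab2, the hyaluronan receptor (-0.37, standard error 0.17), did not pass. Markers of hepatocytes were bright in all livers, with Alb, albumin, at 14.53, 14.43 and 14.50 in HFD+LY livers, against 14.59, 14.52 and 14.55 in HFD livers (-0.067, standard error 0.085) and a median over 13 genes of 0.030. Skeletal muscle and pancreas markers had medians of 0.021 and -0.0060, with 1 higher, the myosin Myh4 (0.28, standard error 0.11). The count of higher muscle markers was 0 without animal 8 or 11 and 2 without animal 14, and in pancreas markers 1 was higher without animal 8 and 1 lower without animal 20. Periportal and pericentral hepatocyte markers had medians of -0.11 and -0.055, with Cyp1a2 the 1 past the threshold. The periportal median was -0.0027 without animal 20 and 0.020 without animal 8, each with 1 lower, and 2 were lower without animal 14.

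Inflammatory genes were also mostly on the lower side. Of 51 measured members, 10 were lower, where 4.09% of all symbols were, 0 were higher and 41 did not pass, with 39 negative values (median -0.13). In the bin of signal nearest to the list's median, at 7.54, 131 of 2221 rows were lower and 49 higher. The median of that bin was -0.054. Mlkl, the pore-forming effector of necroptosis, had 9.27, 9.13 and 8.87 in HFD+LY livers, against 9.79, 9.65 and 9.47 in HFD livers (log2 fold change -0.55, standard error 0.13, unadjusted p = 0.00261). Ripk3, the kinase that activates it, had 6.33, 6.56 and 6.86 in HFD+LY livers, against 7.11, 7.07 and 6.84 in HFD livers (-0.43, standard error 0.14), with overlap between animal 20 and HFD animal 14. Tlr8, an endosomal receptor for RNA, had 6.92, 7.08 and 6.92 in HFD+LY livers, against 7.49, 7.34 and 7.16 in HFD livers (-0.35, standard error 0.11), and Cd14, a coreceptor for endotoxin, had 7.62, 7.74 and 7.72 in HFD+LY livers, against 8.38, 7.93 and 8.02 in HFD livers (-0.41, standard error 0.13). Nfkb2, a subunit of the noncanonical NF-kB pathway, had 8.08, 8.15 and 8.05 in HFD+LY livers, against 8.57, 8.30 and 8.49 in HFD livers (-0.36, standard error 0.10), and its partner Relb had 8.52, 8.52 and 8.68 in HFD+LY livers, against 8.69, 8.78 and 9.01 in HFD livers (-0.25, standard error 0.11). The chemokines Cxcl9 (-0.26, standard error 0.085), Cxcl16 (-0.24, standard error 0.11) and Ccl24 (-0.32, standard error 0.13) and the adhesion molecule Vcam1 (-0.30, standard error 0.10) were the other lower ones. Cytokines that define acute inflammation did not pass: Tnf had dim signals of 6.37, 6.27 and 6.62 in HFD+LY livers, against 6.62, 6.59 and 6.56 in HFD livers (-0.17, standard error 0.11), Il1b had 7.24, 7.14 and 7.27 in HFD+LY livers, against 8.45, 7.52 and 7.07 in HFD livers (-0.46, standard error 0.29) with HFD animal 8 alone above the rest, and Ccl2, the monocyte attractant, had 8.52, 8.66 and 8.71 in HFD+LY livers, against 8.61, 8.79 and 8.71 in HFD livers (-0.074, standard error 0.097). The macrophage markers above were lower in the same livers, and their part in the result was not tested.

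Acute phase proteins, which hepatocytes secrete under inflammation, had members in both directions. Il1rn, the antagonist of the interleukin-1 receptor, had 6.96, 7.03 and 6.94 in HFD+LY livers, against 7.85, 7.54 and 7.62 in HFD livers (log2 fold change -0.70, standard error 0.11, unadjusted p = 0.00012), without overlap. Orm3 was lower too (-0.77, standard error 0.30), whereas Hamp, the iron hormone hepcidin, was higher with 12.25, 12.20 and 11.93 in HFD+LY livers, against 11.15, 11.82 and 11.74 in HFD livers (0.55, standard error 0.18), and so was Apcs, serum amyloid P (0.34, standard error 0.10). The strongly inducible Saa2 had 8.52, 8.97 and 10.98 in HFD+LY livers, against 9.92, 10.78 and 9.15 in HFD livers (-0.45, standard error 0.61) and Lcn2 had 7.73, 8.70 and 10.20 in HFD+LY livers, against 9.80, 9.18 and 9.35 in HFD livers (-0.56, standard error 0.51), spread widely within both groups, with animal 20 the highest of all 6 livers. Of 31 members, which include Mt1 and Mt2, 4 were lower and 2 higher (median -0.060), and 10 were lower without animal 20. With all mice, 4.09% of all symbols were lower and 2.96% higher.

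Genes of the extracellular matrix and mesenchymal cells had single large differences. Lgals1, galectin-1, had log2 signals of 9.27, 9.48 and 9.91 in HFD+LY livers, against 10.88, 10.43 and 10.89 in HFD livers (log2 fold change -1.18, standard error 0.18, unadjusted p = 0.000152, adjusted p = 0.338). Every HFD+LY liver lay below every HFD liver, and the difference was 2.26-fold. Tpm2, a tropomyosin, had 8.32, 8.19 and 8.24 in HFD+LY livers, against 9.01, 8.57 and 8.96 in HFD livers (-0.60, standard error 0.13). Aebp1, a secreted protein tied to fibroblast activation, had 7.45, 7.77 and 7.47 in HFD+LY livers, against 8.05, 8.001 and 8.09 in HFD livers (-0.48, standard error 0.11), and Timp1, an inhibitor of matrix proteases, had 6.39, 6.92 and 6.61 in HFD+LY livers, against 7.04, 7.24 and 7.06 in HFD livers (-0.48, standard error 0.14). The groups did not overlap for these 3. The matrix glycoprotein Sparc (-0.34, standard error 0.10), the actin-binding Tagln (-0.33, standard error 0.12), the collagen Col5a2 (-0.31, standard error 0.11) and the growth factor Tgfb1 (-0.35, standard error 0.15) were the others. Of 52 measured members, 8 were lower and 0 higher, 41 had a negative value, and the median was -0.12. Over all symbols, 4.09% were lower and 52.4% had a negative value. At the signal nearest to the list's median, 8.41, a bin of 2221 rows had 115 lower and a median of -0.036. Col1a1, the main chain of fibrillar collagen, had 9.64, 9.51 and 9.68 in HFD+LY livers, against 9.65, 9.79 and 9.72 in HFD livers (-0.11, standard error 0.094), Acta2, the actin of activated stellate cells, had 7.89, 7.95 and 7.60 in HFD+LY livers, against 8.70, 7.31 and 8.22 in HFD livers (-0.26, standard error 0.30), and 0 of 16 markers of stellate cells and fibroblasts passed (median -0.029, and 0.032 without animal 8), while 1 was lower without animal 16 or 11. Of 33 angiogenesis genes, 1 was lower, Adm, the vasodilator adrenomedullin, with 7.34, 7.51 and 7.94 in HFD+LY livers, against 7.95, 8.20 and 8.34 in HFD livers (-0.56, standard error 0.17) (median -0.061), and the count of lower genes was 4 without animal 16 or 8.

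Other genes among the lowest had varied roles. Dsg1c, a desmosomal cadherin, had 8.08, 7.94 and 7.94 in HFD+LY livers, against 8.79, 8.70 and 9.47 in HFD livers (log2 fold change -0.999, standard error 0.19, unadjusted p = 0.000574). Sulf2, which trims sulfate from heparan sulfate at the cell surface, had 8.52, 8.19 and 8.51 in HFD+LY livers, against 9.72, 9.14 and 9.18 in HFD livers (log2 fold change -0.94, standard error 0.17, unadjusted p = 0.00042). Ctse, the protease cathepsin E, had 7.26, 7.52 and 7.59 in HFD+LY livers, against 8.50, 8.09 and 8.22 in HFD livers (-0.81, standard error 0.14). Each of them separated the groups. Abcb1a, the drug export pump P-glycoprotein, had 9.01, 8.71 and 8.95 in HFD+LY livers, against 9.89, 9.07 and 10.08 in HFD livers (-0.79, standard error 0.24), with HFD animal 11 close to the HFD+LY livers, and Cpe, a processing enzyme of peptide hormones, had 7.59, 6.97 and 8.11 in HFD+LY livers, against 8.19, 8.71 and 8.45 in HFD livers (-0.89, standard error 0.26), with animal 20 just below HFD animal 8. Rgs16, a regulator of G protein signaling that follows feeding and fasting in liver, had 10.39, 10.44 and 10.79 in HFD+LY livers, against 11.26, 11.08 and 11.19 in HFD livers (log2 fold change -0.64, standard error 0.12, unadjusted p = 0.000664).

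Of the 15 highest fold changes, 8 were receptors for odors, pheromones or taste, left out here and described at the end. All rows of these receptors had a median signal of 6.39, against 8.32 for the other rows. The other genes named here had varied roles. Cyp17a1, the 17-alpha-hydroxylase of steroid synthesis, had 11.71, 12.30 and 12.29 in HFD+LY livers, against 10.55, 11.67 and 11.05 in HFD livers (log2 fold change 1.01, standard error 0.27, unadjusted p = 0.00524), without overlap but with animal 16 and HFD animal 11 nearly level. Zbtb16, a zinc finger transcription factor, had 11.04, 10.92 and 10.91 in HFD+LY livers, against 10.33, 10.67 and 9.92 in HFD livers (0.66, standard error 0.17). Enho, which encodes the secreted peptide adropin, had 9.62, 9.72 and 9.74 in HFD+LY livers, against 9.32, 9.23 and 8.71 in HFD livers (0.61, standard error 0.16). In Zbtb16 and Enho the HFD+LY livers were close together and the HFD livers spread, with animal 14 lowest. Gins1, a subunit of the complex that opens replication forks, had 8.56, 8.55 and 8.55 in HFD+LY livers, against 7.89, 8.02 and 7.79 in HFD livers (log2 fold change 0.65, standard error 0.093, unadjusted p = 7.88e-05), and Dsel, an epimerase of dermatan sulfate, 7.32, 8.04 and 7.64 in HFD+LY livers, against 6.75, 7.23 and 7.03 in HFD livers (0.66, standard error 0.19). The zinc finger gene Zfp960 had 10.62, 10.38 and 9.93 in HFD+LY livers, against 9.78, 9.79 and 9.40 in HFD livers (0.65, standard error 0.18). Of 23 genes of steroid metabolism, Cyp17a1 was the 1 higher and 3 were lower, Hsd17b1 (-0.35, standard error 0.11), Hsd17b6 (-0.62, standard error 0.27) and Hsd17b12 (-0.22, standard error 0.091) (median -0.052). The balance turned to 3 higher and 1 lower without animal 8 and to 2 higher and 1 lower without animal 14, was 1 and 1 without animal 18 and 2 and 2 without animal 16 or 20, and the median ran from -0.086 without animal 16 to 0.0086 without animal 18. Of 22 hepatokines, Enho was the 1 higher and Inhba, an activin subunit, the 1 lower (-0.46, standard error 0.15). Without animal 20, 2 were higher, without animal 8 or 14, 2 were lower, and without animal 16, 0 were lower.

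Few genes of insulin and mTOR signaling themselves passed the threshold. Of 49 measured members, 1 was higher, 1 lower and 47 did not pass (median 0.024). Without animal 8, 4 were lower and the median was -0.0048, and without animal 16, 0 were higher, 2 lower and the median -0.0079. Without animal 20, 2 were higher and 2 lower, 2 were lower without animal 11 or 14, and 0 were higher without animal 18 or 14. Irs2, the insulin receptor substrate that insulin represses in liver, had 10.44, 10.45 and 10.17 in HFD+LY livers, against 10.03, 10.19 and 9.95 in HFD livers (0.30, standard error 0.11), and Irs1 had 9.77, 9.65 and 9.39 in HFD+LY livers, against 9.40, 9.20 and 9.57 in HFD livers (0.21, standard error 0.13) and did not pass. Grb10, an adaptor that inhibits the insulin receptor and a substrate of mTORC1, had 7.24, 7.13 and 7.16 in HFD+LY livers, against 7.65, 7.51 and 7.38 in HFD livers (-0.34, standard error 0.10). Rps6, whose protein S6K1 phosphorylates, had 12.11, 12.06 and 12.08 in HFD+LY livers, against 12.12, 12.10 and 12.11 in HFD livers (-0.025, standard error 0.082), Mtor 9.20, 8.86 and 9.03 in HFD+LY livers, against 8.999, 9.10 and 9.10 in HFD livers (-0.037, standard error 0.11) and Akt2, the main AKT of liver, 11.33, 11.27 and 11.23 in HFD+LY livers, against 11.15, 11.27 and 11.21 in HFD livers (0.070, standard error 0.087). Of the machinery of translation, 47 of 60 cytosolic ribosomal protein genes had a positive value, with a median of 0.041 and 1 higher gene, Rpl22l1 (0.24, standard error 0.094), and 22 of 32 genes of ribosome biogenesis had one, with a median of 0.051. The gene past the threshold in ribosome biogenesis was Ltv1, an assembly factor of the small subunit (0.25, standard error 0.098). Both counts of higher genes were 0 without animal 16, and that of ribosome biogenesis was 2 without animal 20, while that of the ribosomal proteins was 0 without animal 20, 8 or 11. The median of ribosome biogenesis was 0.021 without animal 18. In the bin of signal that holds the median signal of each list, the median of all rows was 0.030 for the ribosomal proteins and 0.017 for ribosome biogenesis.

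Amino acid and folding stress genes had a few higher members, where 2.96% of all symbols were higher. Atf4, the transcription factor of the integrated stress response that mTORC1 also raises, had 11.50, 11.50 and 11.35 in HFD+LY livers, against 11.19, 11.21 and 11.01 in HFD livers (0.31, standard error 0.099). Its targets Shmt2 (0.28, standard error 0.11) and the related Shmt1 (0.27, standard error 0.11), which make one-carbon units from serine, were higher, while Asns, the asparagine synthetase, had 7.89, 8.02 and 8.58 in HFD+LY livers, against 8.15, 8.27 and 8.09 in HFD livers (-0.0080, standard error 0.17) and Trib3, a pseudokinase, a fold change of 0.062, neither past the threshold. Of 28 genes of this list 3 were higher and 0 lower, with a median of 0.0073, and of -0.0079 and -0.020 without animal 20 or 8. Hspa5, the chaperone BiP, had 11.83, 11.84 and 11.55 in HFD+LY livers, against 11.46, 11.41 and 11.51 in HFD livers (0.28, standard error 0.11), and with Creld2 (0.35, standard error 0.13) and Dnajb11 (0.29, standard error 0.12) made 3 of 20 chaperone genes higher and 0 lower (median 0.074). Of the chaperones 0 were higher with animal 16 or 11 left out and 1 with animal 18 or 14 left out. Without animal 16, 1 chaperone was lower, and without animal 20, 4 were higher. Of the ATF4 list 1 was higher with animal 18, 11 or 14 left out. In that list 4 were higher without animal 16 or 20, with 1 lower without animal 20. The 79 subunits of oxidative phosphorylation had 0 past the threshold in either direction, with 63 positive values and a median of 0.035, or 0.012 without animal 11, while 1 was higher without animal 8 and 1 lower without animal 20. In the bin of signal that holds the median signal of these subunits, the median of all rows was 0.030.

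Enzymes of drug and peroxide metabolism were split, where 2.96% of all symbols were higher and 4.09% lower at an unadjusted p. Cyp1a2, a pericentral P450 of aromatic amines, had 13.84, 13.80 and 13.52 in HFD+LY livers, against 13.35, 13.26 and 13.21 in HFD livers (log2 fold change 0.44, standard error 0.11, unadjusted p = 0.00342), without overlap. Cyp2e1, the pericentral P450 of ethanol and ketones, had 13.77, 13.84 and 13.77 in HFD+LY livers, against 13.74, 13.87 and 13.79 in HFD livers (-0.0090, standard error 0.087), and the groups overlapped. Cyp2r1, a vitamin D 25-hydroxylase, had 9.59, 9.68 and 9.58 in HFD+LY livers, against 9.26, 9.29 and 9.06 in HFD livers (0.41, standard error 0.098). With the near-identical Cyp2c50 (0.26, standard error 0.11) and Cyp2c54 (0.30, standard error 0.10), 4 of 42 xenobiotic P450 genes were higher and 1 lower, Cyp2c38 (-0.37, standard error 0.14), while 8 were higher without animal 8, 2 without animal 16, 11 or 14, and 4 were lower when animal 11 was left out, 2 when animal 18 was and 0 when animal 8 or 14 was. Of the glutathione transferases, 3 of the mu class were higher, with Gstm3 at 10.55, 10.83 and 10.65 in HFD+LY livers, against 10.07, 10.44 and 10.25 in HFD livers (0.42, standard error 0.12), Gstm4 at 11.13, 11.37 and 11.03 in HFD+LY livers, against 10.77, 10.92 and 10.79 in HFD livers (0.35, standard error 0.11) and Gstm6 (0.28, standard error 0.11), genes of 1 cluster whose probes may cross-react. Gsr, the glutathione reductase (0.28, standard error 0.11), and Mgst3 (0.33, standard error 0.14) were also higher, while Hmox1, heme oxygenase, had 8.04, 7.72 and 7.95 in HFD+LY livers, against 8.28, 8.25 and 8.10 in HFD livers (-0.31, standard error 0.11) and was lower, as was Gsto1, an omega-class transferase (-0.24, standard error 0.093). Of 41 genes of this list 5 were higher and 2 lower, with 2 higher without animal 18 and 3 without animal 20, 8 or 11, and with 0 lower without animal 18 and 1 without animal 16, 8, 11 or 14. Nqo1, a standard target of NRF2, had 7.84, 7.69 and 8.04 in HFD+LY livers, against 7.93, 7.32 and 7.83 in HFD livers (0.17, standard error 0.17) and did not pass.

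Immediate early genes, which respond fast to stimuli, had 4 higher and 2 lower members of 31. Of all symbols, 2.96% were higher and 4.09% lower. Ier2 had 8.36, 8.19 and 8.26 in HFD+LY livers, against 7.83, 7.65 and 7.59 in HFD livers (log2 fold change 0.58, standard error 0.10, unadjusted p = 0.000338), without overlap, and Junb, a subunit of AP-1, had 10.42, 10.10 and 9.68 in HFD+LY livers, against 9.57, 9.57 and 9.20 in HFD livers (0.63, standard error 0.19). Jun had 10.41, 10.04 and 10.51 in HFD+LY livers, against 10.33, 9.10 and 9.63 in HFD livers (0.63, standard error 0.27), with HFD animal 8 within the HFD+LY range, and Gadd45a, a stress response gene, was higher (0.27, standard error 0.11). The nuclear receptors Nr4a1 (-0.33, standard error 0.14) and Nr4a2 (-0.25, standard error 0.10) were lower, and Egr1 (0.41, standard error 0.24) and Fos (-0.23, standard error 0.13) did not pass and differed in sign. The list's median was -0.015, and 8 members were higher without animal 8, 2 without animal 16 or 14, and 4 were lower when animal 20 was left out, 1 when animal 18, 8 or 14 was and 0 when animal 16 was. The clock gene Nr1d2 had 10.92, 10.76 and 10.67 in HFD+LY livers, against 10.52, 10.53 and 10.50 in HFD livers (0.27, standard error 0.097), as the 1 of 21 circadian genes past the threshold, while 3 were higher without animal 20, 2 without animal 8 or 11 and 0 without animal 16 or 14.

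Genes of glucose handling had 1 higher and 2 lower of 33 (median -0.072), where 2.96% of all symbols were higher and 4.09% lower. Slc2a1, the glucose transporter GLUT1, had 10.93, 11.06 and 10.86 in HFD+LY livers, against 10.78, 10.56 and 10.45 in HFD livers (0.36, standard error 0.11), without overlap. Ppp1r3g, a glycogen-targeting subunit of protein phosphatase, had dim signals of 6.17, 6.26 and 6.30 in HFD+LY livers, against 6.57, 6.51 and 6.73 in HFD livers (-0.36, standard error 0.097), and Tkfc, a kinase of fructose metabolism, was lower too (-0.22, standard error 0.095). With animal 20 left out 4 were lower, and 1 without animal 16 or 18, and 2 were higher without animal 8. Pck1, the gluconeogenic carboxykinase, had 11.03, 10.995 and 11.18 in HFD+LY livers, against 11.31, 11.33 and 11.17 in HFD livers (-0.21, standard error 0.096), and G6pc, the glucose-6-phosphatase, had 12.37, 12.63 and 12.69 in HFD+LY livers, against 13.03, 12.20 and 12.52 in HFD livers (-0.017, standard error 0.20), neither past the threshold. Cell cycle genes had 7 lower and 0 higher of 47, among them the proliferation marker Mki67 with 6.63, 6.59 and 6.73 in HFD+LY livers, against 7.44, 6.89 and 6.87 in HFD livers (-0.42, standard error 0.15) and the mitotic kinases Cdk1 (-0.33, standard error 0.11) and Plk1 (-0.35, standard error 0.11). Over all symbols, 4.09% were lower at an unadjusted p under 0.05. At the signal nearest to the list's median, 7.54, a bin of 2221 rows had 131 lower and a median of -0.054. The median of the cell cycle list was -0.14, and without HFD animal 8 the count was 1 and the median -0.062, and 3 were lower without animal 18. The others were Spc25, a kinetochore protein (-0.45, standard error 0.15), Cenpe, a motor of the kinetochore (-0.31, standard error 0.12), Stmn1, a regulator of tubulin (-0.50, standard error 0.19), and Mcm3, a part of the replicative helicase (-0.21, standard error 0.092). Gins1, the replication fork gene named above among the highest, is not a member of this list.

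**Figure D5:**
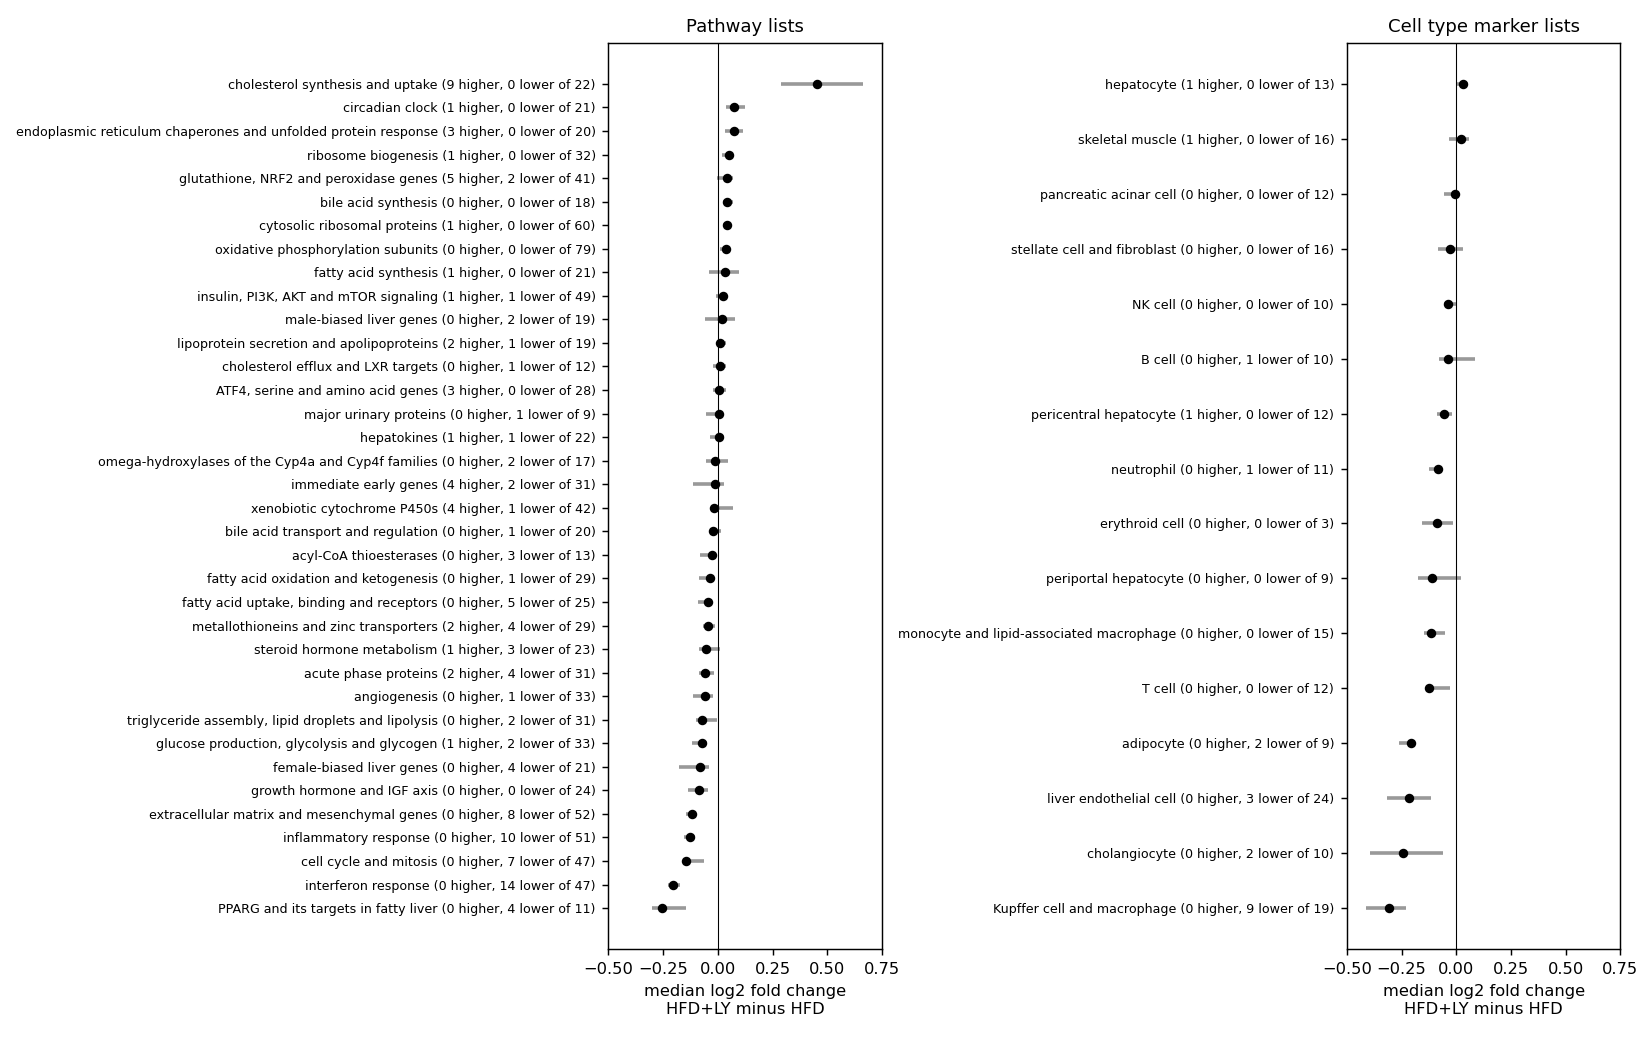
Median log2 fold change (HFD+LY minus HFD) of the measured members of each list in liver (points), with gray bars from the lowest to the highest median when each mouse was left out in turn, and the counts at an unadjusted p under 0.05 from limma beside each name. Cholesterol synthesis lies to the right at 0.45, and the Kupffer cell markers, the PPARG targets and the interferon response lie to the left at -0.31, -0.25 and -0.21. The cholangiocyte, liver endothelial cell and adipocyte markers lie to the left as well, at -0.24, -0.21 and -0.21.

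The liver response was set against that of SAT of the same mice, which shares the treatment and the animals, by testing whether the treatment effect differed between the tissues (an interaction term in limma, 12 arrays). Of 22206 rows, 9 (0.0405%) had an adjusted p under 0.05, 1 more negative in liver and 8 more positive. The negative one was Cyp4a12b, with a log2 fold change of -1.53 in liver and -0.018 in SAT (difference -1.51, adjusted p = 0.0013). In SAT the signal of Cyp4a12b was 6.73 ± 0.083 in HFD+LY mice and 6.75 ± 0.13 in HFD mice (SD, n = 3 each), far below its level in liver. The 8 positive rows were Mup2, Mup19 and Mup22 and 5 rows without a gene symbol. Their liver fold changes lay between -0.035 and 0.045, and all 8 had negative ones in SAT. The next named genes by p on the positive side were Mup3 (difference 1.55, adjusted p = 0.0518) and Mup9 (1.89, adjusted p = 0.0518). With the difference between the tissues taken within each animal (the replicate block), 0 rows passed, and Cyp4a12b had an adjusted p of 0.0813. The next named genes by p on the negative side were Cyp4a12a (difference -1.38, adjusted p = 0.0525), Rgs16 (-1.001, adjusted p = 0.0559), Timp4, a protease inhibitor (-0.96, adjusted p = 0.0917), and Caprin2, an RNA-binding protein (-0.78, adjusted p = 0.293). The 16 skeletal muscle markers had mean signals in SAT of 7.83, 7.95 and 12.51 in HFD+LY mice and 7.96, 12.62 and 9.29 in HFD mice, highest in animals 11 and 20, and their part in the result was not tested. In the tissue difference 5 rows passed when animal 20 was left out, 1 when animal 8, 11 or 18 was, and 0 when animal 14 was. For cholesterol synthesis the median was 0.45 in liver and -0.18 in SAT, and 8 of the 22 genes differed between the tissues at an unadjusted p under 0.05, all more positive in liver. For the interferon response the medians were -0.21 in liver and 0.0032 in SAT, and 6 of 47 genes differed, all more negative in liver. Over all 22206 rows, 764 were more positive and 616 more negative in liver at this unadjusted threshold.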

How the data were processed

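RNA of livers and SAT was hybridised to whole-transcript arrays, and the deposited table holds log2 signals that the authors made by robust multi-array average (RMA) from all 12 arrays together, background-corrected, quantile-normalized and summarized per transcript. The version of RMA and the genome build of the rows are not given in the sources used here. Of 28846 rows, 6640 control rows were left out, which left 22206, and 19572 had 1 gene symbol by the platform annotation. Where 55 symbols had several rows, the brightest was used for lists. The 6 liver arrays were compared with limma 3.58.1 (R 4.3.3), HFD+LY minus HFD, with 4 residual degrees of freedom and Benjamini-Hochberg adjustment over all rows. Median signals per array were 8.16 to 8.22, and the number of arrays limits the precision. The tissue difference was the interaction on 12 arrays, with the liver and SAT arrays of a mouse taken as independent. The script was tested on simulated data. Figures were drawn with matplotlib 3.10.9.

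The members and lists were chosen with earlier results of these data known. Genes were named if the study names them for liver, if they passed the adjusted threshold, if they were among the 15 highest or 15 lowest at an unadjusted p under 0.01 without overlap, if they were among the 5 smallest p of a list in either direction, if they define a pathway, or if they were among the 5 smallest p of the tissue difference in either direction. Olfactory, vomeronasal, taste and predicted genes were left out, and further members of a list past the threshold were named after their values were seen. In the liver comparison each array is 1 mouse, so its p-values measure the spread between mice. The tissue difference and the fit on all arrays hold a liver and a SAT array of each mouse. These were taken as independent, except with the animal as a block. Alternatives were the fit on all arrays, a trend in the prior, quantile normalization or centring within liver, array weights, a filter on dim rows, the methods' t-test, rows with 1 symbol, the mean of a gene's rows, the animal as a block and each mouse left out. Promoters were matched to RefSeq by symbol. In each motif search a member counted once if any annotated start held a match, while shares over all promoters count every promoter.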

Additional observations from a re-analysis of the deposited data

Results flagged for a closer look

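The response to the inhibitor differed between liver and SAT for 9 transcript rows, by the interaction term in limma with both tissues in the fit. For Cyp4a12b the difference, liver minus SAT, was -1.51 on the log2 scale (adjusted p = 0.0013). Cyp4a12b was dim in SAT, at 6.73 in HFD+LY and 6.75 in HFD mice, against 9.68 and 11.21 in liver. Whether so dim a signal could show a fall was not tested. For 3 major urinary proteins it was 1.52 (Mup2), 1.44 (Mup22) and 1.66 (Mup19), and for 5 rows without a gene symbol it was 1.48 (TC0400002768.mm.2), 1.74 (TC0400004211.mm.2), 1.56 (TC0400004212.mm.2), 1.56 (TC0400002769.mm.2) and 1.596 (TC0400004208.mm.2). In all 8 the fold change was close to 0 in liver and below -1.4 in SAT. The measured Mup genes were very bright in liver, with a median signal of 14.2. Whether so bright a signal could show a change was not tested. Probes of the Mup family are near identical, so these rows are not separate measurements. Within each animal, as the replicate block takes it, the smallest adjusted p of these 9 was 0.0813, for Cyp4a12b.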

How the results depend on the processing

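Cyp4a12b kept its direction under every alternative run and its side of the adjusted threshold under each but the methods' t-test (equal variances, each row alone), where its log2 fold change of -1.53 had an adjusted p of 0.278 and 0 rows passed. With all 12 arrays in 1 fit, 2 rows passed, the second being Cyp4a12a, and with an intensity trend in the prior 7 rows passed, among them Slc39a4 and Lgals1. With 1 mouse left out, 1 row passed each time, with an adjusted p for Cyp4a12b of 0.0053 to 0.036. The count at an unadjusted p lay between 1052 and 1952 with 1 mouse left out. The tissue difference had 15 rows past the adjusted threshold with the trend, 0 with the animal as a replicate block and 0 to 9 with 1 mouse left out, and its count at an unadjusted p was 885 (without animal 14) to 1947 (without animal 20), against 1380 with all mice. The liver comparison has different mice in its groups, so no pairing applies to it, and the correlation of liver and SAT deviations of 1 animal was -0.067 to 0.21. Among the genes named, those whose sign changed had all missed the unadjusted threshold. The log2 fold change changed sign with quantile normalization within liver for Asns (0.028), Mup19 (-0.023) and Mup22 (-0.024). The log2 fold change changed sign with median centring of each array for Asns (0.023), Cyp2e1 (0.022), G6pc (0.015), Igf1 (0.0059), Pparg (0.029) and Rps6 (0.0063). The log2 fold change changed sign with array weights for G6pc (0.063) and Slc10a1 (-0.00104). With 1 mouse left out, it ranged across 0 for Acta2 (-0.65 to 0.046), Asns (-0.22 to 0.13), Cyp2e1 (-0.039 to 0.028), Cyp4a14 (-0.19 to 0.036), Cyp4a31 (-0.45 to 0.10), Cyp4a32 (-0.34 to 0.049), Cyp8b1 (-0.16 to 0.22), Fasn (-0.055 to 0.23), G6pc (-0.21 to 0.21) and Igf1 (-0.067 to 0.0052). The same held for Insig2 (-0.35 to 0.011), Irf9 (-0.22 to 0.0063), Lcn2 (-1.23 to 0.0078), Mtf1 (-0.013 to 0.12), Mtor (-0.12 to 0.046), Mup19 (-0.034 to 0.045), Mup2 (-0.0089 to 0.023), Mup22 (-0.023 to 0.021), Mup9 (-0.053 to 0.13) and Nqo1 (-0.021 to 0.28). It also ranged across 0 for Oas3 (-0.089 to 0.027), Pparg (-0.24 to 0.24), Saa2 (-1.20 to 0.031), Scd1 (-0.34 to 0.055), Slc10a1 (-0.017 to 0.018), Timd4 (-0.20 to 0.033) and Trib3 (-0.033 to 0.14). The cause of these changes was not tested. The number of mice, with 4 residual degrees of freedom, limits the differences that single genes could show.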

Other observations

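Receptors for odors, pheromones and taste (symbols starting Olfr, Vmn or Tas), which are not known for expression in liver, made up 8 of the 15 highest fold changes. Of their 1450 rows, 124 (8.55%) were higher in HFD+LY livers at an unadjusted p under 0.05 and 21 (1.45%) lower, against 2.57% and 4.11% of all other rows. Their median log2 fold change was 0.063. Their median signals were dim in every liver, 6.33, 6.55 and 6.43 in HFD+LY animals 16, 18 and 20 and 6.34, 6.31 and 6.35 in HFD animals 8, 11 and 14. Animal 18 was the highest of the 6 and animal 16 lay within the HFD range. The count of higher rows was 67 without animal 18 and 206 without animal 16. These rows are far dimmer than the others, whose median signal was 8.32 against 6.39, and the part of the background signal of each array in this pattern was not tested.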
